A study of Mus musculus with 9 samples.

Results

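The genes described here are 57 cell cycle and DNA replication genes, measured in whole left lungs of mice 21 days after surgery, out of 22909 genes that could be named on the arrays. They were chosen by function with earlier results of these data known, so their share of calls is a description. Each gene was represented by 1 probe, the brightest by mean log2 signal on the 9 arrays. Only probes whose transcript accession belonged to the gene were considered. All 57 were found. The array carried 85 probes for them, and 24 genes had more than 1.

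The lungs came from a mouse model of obliterative bronchiolitis (OB), the fibrous closing of small airways that limits the survival of lung transplants. There were 3 groups of 3 lungs, and each lung had its own array. The OB group and the non-OB group were left lungs of C57BL/10 donors placed into C57BL/6 recipients, which share the H-2 b haplotype and differ in minor histocompatibility antigens, and the histology of each graft at day 21 set its group. The sham group had a thoracotomy only. All mice were male, and donors and recipients were 8 to 12 weeks old. In the labels all 9 samples carry the same donor strain, C57BL/10, and recipient strain, C57BL/6, but by the study's supplement sham 1 was a C57BL/10 mouse and the other 2 sham mice were C57BL/6. Slide 1 carried OB 1, non-OB 1, sham 1 and sham 2, slide 2 carried OB 2 and non-OB 3, slide 3 carried OB 3 and non-OB 2, and slide 4 carried sham 3. Between 58.6% and 69.6% of the spots of an array were well above background, and no spot was saturated. Surfactant genes and other markers of lung epithelium, 10 in all, were each well above background on all 9 arrays.

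A cell that divides first passes from G1 into S phase, where E2F factors and cyclin E switch on the genes for DNA synthesis. Replication origins are licensed by loading the MCM helicase, nucleotides are supplied by enzymes such as ribonucleotide reductase, and the sliding clamp PCNA holds the polymerases on DNA. In G2 and mitosis another wave of genes follows, driven in part by MYBL2 and FOXM1, for the kinases, kinetochore proteins and spindle motors that separate the chromosomes. Many replication proteins are stable and are also made for DNA repair, whereas transcripts of the mitotic wave are low in resting tissue. An adult lung holds few dividing cells, and T cells that meet alloantigen divide.

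Genes of the mitotic wave commonly carry CCAAT boxes and a cell cycle homology region (CHR) upstream of their start, and S phase genes commonly carry E2F motifs. The sequences below are shown because the counts of calls given further on differed between the replication and the mitotic genes. Each holds the 200 bases before the start of the RefSeq transcript (GRCm38.p6), written 5′ to 3′ on the strand of the gene, and capitals mark matches on either strand to TTTGAA (CHR), CCAAT, or an E2F motif (TTTCCCGC, TTTCGCGC, TTTGCCGC or TTTGGCGC). Matches can overlap, as where both strands of a motif meet.
Mki67, chr7:135716380-135716579, minus strand: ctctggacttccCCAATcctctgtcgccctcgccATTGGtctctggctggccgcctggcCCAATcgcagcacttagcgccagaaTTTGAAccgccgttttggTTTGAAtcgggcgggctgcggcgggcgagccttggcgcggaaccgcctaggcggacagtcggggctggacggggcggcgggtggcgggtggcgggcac
Top2a, chr11:99024190-99024389, minus strand: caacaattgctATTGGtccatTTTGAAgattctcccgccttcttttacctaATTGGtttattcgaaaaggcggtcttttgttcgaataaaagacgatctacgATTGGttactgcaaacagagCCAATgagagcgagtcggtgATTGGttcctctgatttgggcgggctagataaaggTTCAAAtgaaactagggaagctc
Cdk1, chr10:69352913-69353112, minus strand: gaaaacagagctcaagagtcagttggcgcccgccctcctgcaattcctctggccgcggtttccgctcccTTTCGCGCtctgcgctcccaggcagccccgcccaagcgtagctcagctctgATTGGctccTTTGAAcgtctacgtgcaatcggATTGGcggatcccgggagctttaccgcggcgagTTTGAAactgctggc
Ube2c, chr2:164769729-164769928, plus strand: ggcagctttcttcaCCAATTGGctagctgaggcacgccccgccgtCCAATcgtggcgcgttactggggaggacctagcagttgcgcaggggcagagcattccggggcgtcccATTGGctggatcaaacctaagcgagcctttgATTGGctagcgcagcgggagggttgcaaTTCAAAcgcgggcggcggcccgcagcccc
Mcm5, chr8:75109309-75109508, plus strand: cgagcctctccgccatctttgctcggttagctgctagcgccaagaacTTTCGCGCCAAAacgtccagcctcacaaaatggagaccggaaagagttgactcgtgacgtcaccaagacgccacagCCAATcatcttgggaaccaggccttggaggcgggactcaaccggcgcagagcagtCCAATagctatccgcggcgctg
Mcm6, chr1:128359706-128359905, minus strand: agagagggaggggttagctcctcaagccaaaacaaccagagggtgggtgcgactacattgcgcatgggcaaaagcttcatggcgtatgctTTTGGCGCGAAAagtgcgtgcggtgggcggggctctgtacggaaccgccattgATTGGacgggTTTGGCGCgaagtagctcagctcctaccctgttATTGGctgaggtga

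Upstream sequences were found for 48 of the 57 genes. A CCAAT match stood in 34 of the 48 (70.8%) against 32.7% of all 27025 genes with such a sequence, a CHR match in 12 (25.0%) against 14.4%, and an E2F match in 5 (10.4%) against 1.83%. Of the 30 genes of mitosis, kinetochore, spindle and chromatin, 10 had a CHR match and 1, Cdk1, had an E2F match. Of the 14 replication genes, 1 had a CHR match and 4 had an E2F match. CCAAT did not separate them, with a match in 23 of the 30 and in 10 of the 14. Birc5, Tk1, Tyms and Cdt1 held no match to any of these motifs. Mki67, Top2a and Cdk1 each held 2 CHR matches and Ube2c held 1, whereas Mcm5 and Mcm6 held none and held 2 and 3 E2F matches. A match describes the letters in this window only, and no binding was measured.

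In both kinds of graft most of these genes were brighter than in the sham lungs. Of the 57 genes, 37 were called higher in OB than in sham and 0 lower. A call needed an adjusted p under 0.05 from limma, with Benjamini-Hochberg adjustment over all 56601 probes tested, together with a 2-fold difference of the group means. At an unadjusted p under 0.05 the numbers were 46 and 0, against 2195 and 3740 of all 22909 named genes. Over all 22909 named genes, 3.82% were called higher and 3.73% lower. The median log2 change of the 57 genes was 1.87, with a range from 0.14 to 3.19, and the median over all named genes was -0.05. In non-OB against sham 32 of the 57 were called higher and 0 lower, against 2.52% higher and 1.13% lower of all named genes, and the median log2 change was 1.78. At an unadjusted p under 0.05 these numbers were 44 and 0, against 2205 and 2768 of all named genes. The 32 genes called in the non-OB group were all among the 37 called in the OB group, and both comparisons used the same sham arrays. In bulk tissue, more dividing cells and more RNA in each such cell cannot be told apart. The p-values rest on 1 spread for each probe, pooled over the lungs within the 3 groups, with 3 lungs in each. Limma draws that spread towards that of the other probes.

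The single arrays showed the same. Each OB array exceeded every sham array for 51 of the 57 genes, as it did for 19.9% of all named genes, and each non-OB array did so for 47, against 15.5%. All 6 grafts lay above all 3 sham lungs for 47 genes, against 12.8% of all named genes. The exceptions were Ccne2, E2f1, Mcm2, Mcm3, Mcm4, Cdc6, Cdc45, Pcna, Nek2 and Anln. The plot of the 57 genes by array shows how the change was spread over roles and grafts.

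**Figure D1:**
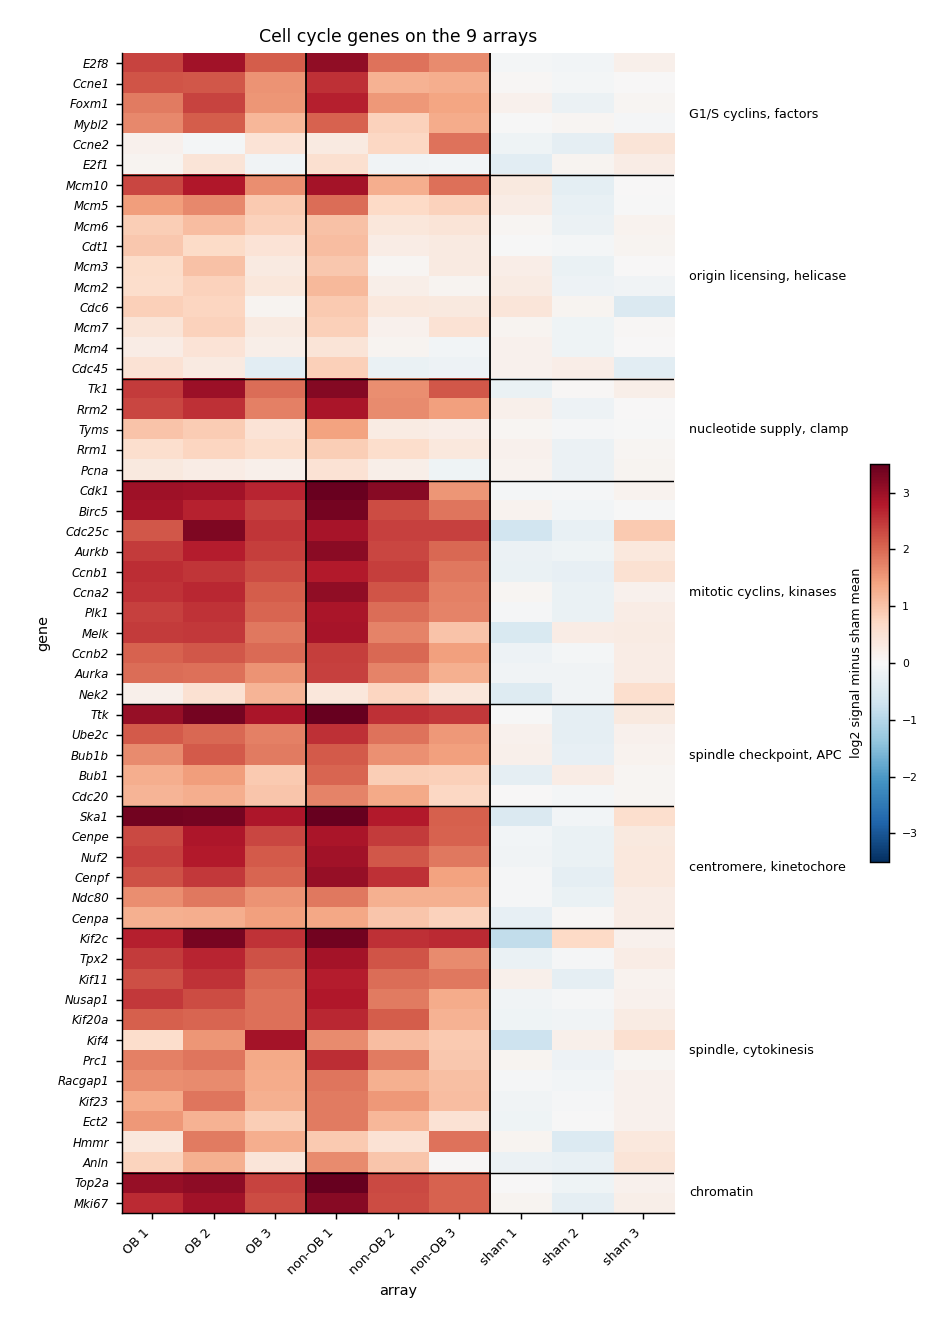
Log2 signal of each of the 57 genes (rows, grouped by role and ordered by the change in OB) on each of the 9 arrays (columns), as the difference from the mean of the 3 sham arrays. Red cells lie above the sham mean: the mitotic, kinetochore and chromatin genes are mostly deep red on all 6 grafts, most of all on non-OB 1, while Nek2, E2f1, Mcm4, Cdc45 and Pcna are pale.

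The count of calls depended on single arrays more than the median did. With an array left out, the median log2 change stayed between 1.76 and 1.94 in OB and between 1.39 and 2.06 in non-OB. In OB against sham the count was 24 without OB 2, 21 without sham 1 and 18 without sham 2. In non-OB against sham it was 17 without non-OB 1, 20 without non-OB 2, 8 without sham 1, 3 without sham 2 and 15 without sham 3. The calls over all named genes fell too. In the same order, those called higher went from 875 to 559, 527 and 438 in OB. In non-OB they went from 578 to 254, 489, 251, 171 and 315. When slide was a fixed block in the model, 0 genes were called in either comparison, with 46 and 45 higher where limma's unadjusted p was under 0.05, and median log2 changes of 2.30 and 2.26. Over all 22909 named genes that block left 3 called higher in OB and 0 in non-OB. By limma's unadjusted p it gave 1696 higher and 3744 lower in OB, and 1712 higher and 2747 lower in non-OB. Slide and group were partly confounded: slides 2 and 3 held no sham lung, and slide 4 held sham 3 alone. With that block, grafts and sham lungs therefore met on slide 1 only. With slide as a random block (correlation within a slide 0.458) 41 and 39 of the 57 were called. Of the 37 genes called in OB, 12 were called in each of the 20 settings that called any, namely Aurkb, Birc5, Ccna2, Ccnb1, Ccnb2, Cenpe, Mki67, Nuf2, Plk1, Top2a, Tpx2 and Ube2c. Within slide 1, all 57 genes were brighter on OB 1 and on non-OB 1 than the mean of sham 1 and sham 2, by a median of 1.85 and 2.55 on the log2 scale.

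Mki67 (NM_001081117), which encodes the Ki-67 protein that coats mitotic chromosomes and marks cycling cells, had a log2 signal of 11.63, 11.95 and 11.29 in OB 1, 2 and 3. It read 12.21, 11.31 and 11.09 in non-OB and 9.12, 8.70 and 9.23 in sham, in the same order, which is kept for the other genes. The lowest graft lay well above the highest sham lung, and the OB and non-OB grafts overlapped. The log2 change was 2.60 in OB (SE 0.33, 6.07-fold, adjusted p = 0.00551 from limma) and 2.52 in non-OB (SE 0.33, adjusted p = 0.0103). Top2a (NM_011623), the topoisomerase that untangles sister chromatids, read 10.62, 10.69 and 9.93 in OB, 11.11, 9.87 and 9.63 in non-OB and 7.58, 7.41 and 7.71 in sham. Its log2 change was 2.85 in OB (SE 0.40, 7.21-fold, adjusted p = 0.00759 from limma) and 2.64 in non-OB (SE 0.40, adjusted p = 0.0168). For both genes non-OB 1 was the brightest of all grafts. Both were called in OB against sham in 20 of 22 other settings, and the other 2 settings, the fixed slide block and the single C57BL/10 sham lung, called none of the 57 genes.

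The 6 genes of entry into S phase, cyclins E and the E2F, MYB and FOX factors, divided into 4 that were called in OB and 2 that were not. Ccne1, cyclin E1, which drives Cdk2 at the start of S phase, read 9.76, 9.75 and 9.15 in OB, 10.12, 8.79 and 8.84 in non-OB and 7.61, 7.51 and 7.57 in sham. The sham lungs lay close together and every graft lay above them, with a log2 change of 1.99 in OB (SE 0.37, adjusted p = 0.0207 from limma) and 1.68 in non-OB (SE 0.37, adjusted p = 0.0582), which was not called. E2f8, an atypical E2F that represses E2F targets late in S phase, had the largest change of this role and read 8.30, 8.87 and 8.05 in OB, 9.03, 7.81 and 7.58 in non-OB and 5.84, 5.83 and 6.09 in sham. Its log2 change was 2.48 in OB (SE 0.39, adjusted p = 0.0114) and 2.22 in non-OB (SE 0.39, adjusted p = 0.0291).

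Mybl2 and Foxm1, the factors that act with the MuvB complex on mitotic genes, were called higher in OB by 1.65 and 1.91 on the log2 scale (adjusted p = 0.0343 and 0.0271 from limma). E2f1, the founding activator of the E2F family, was not: it read 9.25, 9.62 and 9.05 in OB, 9.72, 9.03 and 9.05 in non-OB and 8.80, 9.27 and 9.42 in sham. The 3 groups overlapped, and the log2 change in OB was 0.15 (SE 0.28, adjusted p = 0.786). Ccne2, cyclin E2, was well above background on 0 of the 9 arrays, so no fold is given. The signs for E2f1 and Ccne2 changed between settings.

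The 10 genes of origin licensing and the replicative helicase had the lowest median log2 change of the 8 roles in OB against sham, 0.64, and 1 of them, Mcm10, was called. Mcm10, which helps to activate the loaded helicase, read 8.89, 9.34 and 8.17 in OB, 9.45, 7.83 and 8.47 in non-OB and 6.90, 6.19 and 6.55 in sham, with no overlap between grafts and sham lungs. Its log2 change was 2.26 in OB (SE 0.46, adjusted p = 0.0279 from limma) and 2.04 in non-OB (SE 0.46, adjusted p = 0.0632).

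The MCM2-7 ring is the core of the helicase. Mcm6, the subunit with the brightest probe, read 13.11, 13.34 and 13.05 in OB, 13.29, 12.65 and 12.71 in non-OB and 12.33, 12.04 and 12.39 in sham. Each graft lay above each sham lung, but the log2 change in OB was 0.91 (SE 0.23, 1.88-fold, adjusted p = 0.0556 from limma), short of both limits. A dimmer probe of Mcm6 was called, with a log2 change of 1.10 (adjusted p = 0.0450). The log2 change was 1.35 for Mcm5 (adjusted p = 0.0744), and for Mcm2, Mcm3, Mcm4 and Mcm7 it was 0.61, 0.66, 0.31 and 0.52, none of them called. The loading factors Cdc6 and Cdt1 (0.56 and 0.70) and the helicase subunit Cdc45 (0.14) were not called either, and Cdc45 had negative values in some settings. The other probes of Cdc6 and Cdc45 read differently: their log2 changes in OB were 1.30 (adjusted p = 0.115 from limma) and 1.25 (adjusted p = 0.113), also not called, and the OB arrays lay above all sham arrays on both. On the Cdc45 probe the change rests on 1 sham array well above background.

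Among the 5 genes of nucleotide supply and the clamp, the S phase enzymes Tk1, thymidine kinase, and Rrm2, the inducible subunit of ribonucleotide reductase, were called in both kinds of graft. Tk1 read 10.10, 10.66 and 9.62 in OB, 10.88, 9.28 and 9.82 in non-OB and 7.42, 7.69 and 7.86 in sham. Its log2 change was 2.47 in OB (SE 0.43, 5.54-fold, adjusted p = 0.0161 from limma) and 2.33 in non-OB (SE 0.43, adjusted p = 0.0326). Rrm2 changed by 2.22 in OB (adjusted p = 0.0162), whereas Rrm1, the large subunit of the same enzyme, was at 0.65 (adjusted p = 0.1004) and was not called, nor was Tyms, thymidylate synthase, at 0.79 (adjusted p = 0.226).

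Pcna encodes the clamp and is a common marker of proliferation. It read 12.82, 12.73 and 12.67 in OB, 12.97, 12.68 and 12.31 in non-OB and 12.59, 12.27 and 12.57 in sham. The OB arrays lay just above the sham arrays, the non-OB arrays overlapped them, and the log2 change in OB was 0.26 (SE 0.21, 1.20-fold, adjusted p = 0.498 from limma). In no setting was Pcna called.

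**Figure D2:**
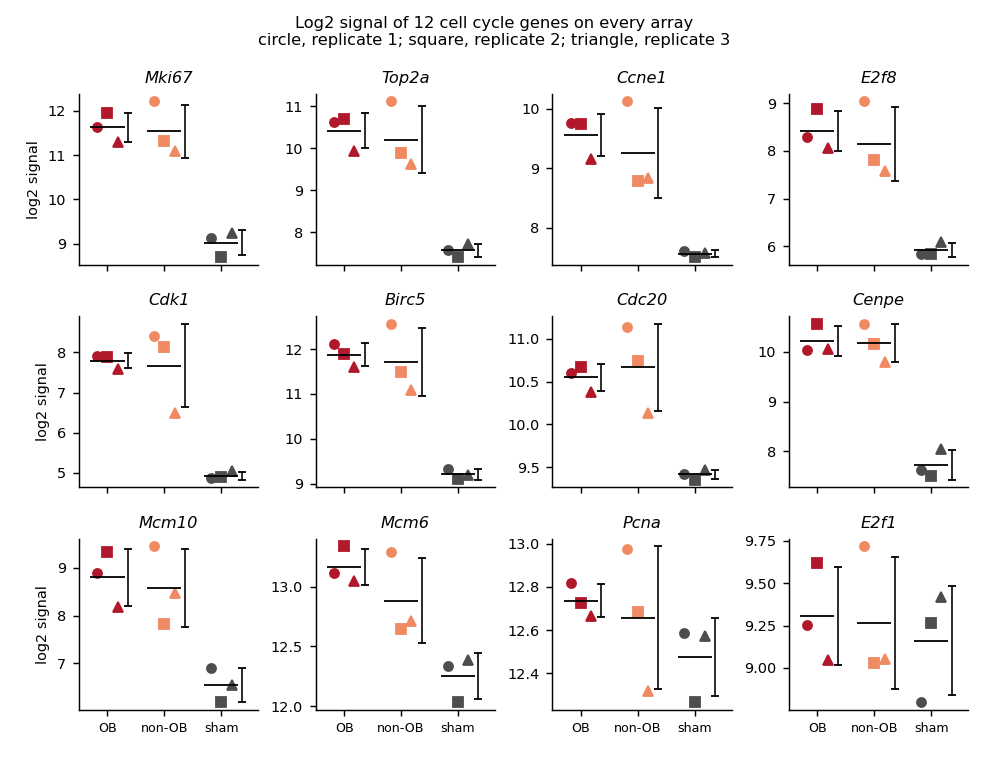
Log2 signal (vertical axes, each with its own range) of 12 genes on the 3 OB, 3 non-OB and 3 sham arrays. Symbols are replicates, horizontal lines are group means and bars beside them are 1 SD. All grafts lie above all sham lungs for the first 10 genes, while for Pcna and E2f1 the groups overlap.

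Of the 11 cyclins and kinases of mitotic entry, 10 were called in OB and 9 in non-OB, with median log2 changes of 2.44 and 2.35. Cdk1, the kinase that drives entry into mitosis, read 7.91, 7.88 and 7.59 in OB, 8.40, 8.13 and 6.48 in non-OB and 4.86, 4.89 and 5.05 in sham. Non-OB 3 was far below the other grafts and still above every sham lung. The log2 change was 2.86 in OB (SE 0.45, 7.26-fold, adjusted p = 0.0114 from limma) and 2.74 in non-OB (SE 0.45, adjusted p = 0.0230). With normexp and quantile normalization it was 1.27 in OB (adjusted p = 0.0579) and 1.19 in non-OB (adjusted p = 0.0978), and Cdk1 was called in neither. Birc5, survivin, a part of the chromosomal passenger complex and the brightest of these probes, read 12.12, 11.89 and 11.61 in OB, 12.56, 11.49 and 11.09 in non-OB and 9.33, 9.10 and 9.19 in sham. Its log2 change was 2.66 in OB (SE 0.36, 6.33-fold, adjusted p = 0.00673) and 2.50 in non-OB (SE 0.36, adjusted p = 0.0142).

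The cyclins Ccna2, Ccnb1 and Ccnb2, the kinases Plk1, Aurka and Aurkb, the phosphatase Cdc25c and the kinase Melk were called in OB with log2 changes between 1.81 and 2.65. The highest, for Cdc25c, rests on a probe well above background on 1 of the 3 sham arrays, and it was 0.87 with normexp and quantile normalization, short of 2-fold. Melk was not called in non-OB (1.87, adjusted p = 0.0930 from limma). Nek2, a centrosomal kinase, was the one gene of this role not called in OB, at 0.63 (adjusted p = 0.361), and its groups overlapped.

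Of the 5 genes of the spindle checkpoint and the anaphase promoting complex, 4 were called in each comparison. Cdc20, the activator of that complex and the brightest of these probes, read 10.60, 10.68 and 10.38 in OB, 11.14, 10.74 and 10.13 in non-OB and 9.42, 9.36 and 9.47 in sham. The sham lungs differed by little and all grafts were brighter, with a log2 change of 1.14 in OB (SE 0.26, adjusted p = 0.0426 from limma) and 1.26 in non-OB (SE 0.26, adjusted p = 0.0479). Ttk, the checkpoint kinase Mps1, read 6.01, 6.31 and 5.81 in OB, 6.67, 5.50 and 5.44 in non-OB and 2.94, 2.64 and 3.29 in sham, where no array showed it well above background. OB therefore exceeded sham at least 3.99-fold (adjusted p = 0.00408) and non-OB exceeded it at least 3.53-fold (adjusted p = 0.00821). Such a bound sets the mean of the grafts against the lowest signal well above background on each sham array, or the probe's own where that was higher. The bound holds for the scaling of the main fit only. With normexp and quantile normalization the log2 change of Ttk was 0.68 in OB and 0.58 in non-OB, short of 2-fold and not called. That setting adds an offset of 50 to each signal before the logarithm, which makes the changes of dim probes smaller. Bub1b and Ube2c, the ubiquitin-conjugating enzyme of the complex, were called at 1.87 and 1.98, and the kinase Bub1 was not (1.21, adjusted p = 0.0908), although no graft overlapped a sham lung.

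All 6 centromere and kinetochore genes were called in both comparisons of the main fit. Cenpe, the kinetochore motor, read 10.04, 10.56 and 10.05 in OB, 10.57, 10.17 and 9.79 in non-OB and 7.62, 7.49 and 8.05 in sham. Its log2 change was 2.50 in OB (SE 0.27, 5.65-fold, adjusted p = 0.00330 from limma) and 2.45 in non-OB (SE 0.27, adjusted p = 0.00642), the lowest adjusted p of all 57 genes in each comparison. Ska1, which couples kinetochores to microtubule ends, read 7.51, 7.48 and 6.96 in OB, 8.08, 6.90 and 6.21 in non-OB and 3.63, 4.04 and 4.71 in sham. It was well above background on 1 of the 3 sham arrays, and the fitted log2 change was 3.19 in OB (SE 0.48, adjusted p = 0.00981) and 2.94 in non-OB (SE 0.48, adjusted p = 0.0223). With normexp and quantile normalization it was 1.02 in OB (adjusted p = 0.0751) and was not called. In the main fit Cenpa, the histone variant of centromeres, changed by 1.31 in OB (adjusted p = 0.0135), and Cenpf, Ndc80 and Nuf2 by 2.25, 1.69 and 2.44. Cenpf and Ndc80 were also not called in OB with normexp and quantile normalization (1.33 and 0.58, adjusted p = 0.0573 and 0.0335 from limma). In non-OB that setting called Cenpe alone of these genes.

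Of the 12 genes of spindle motors, microtubule binding and cytokinesis, 8 were called in OB and 7 in non-OB. Prc1, which bundles the central spindle, read 10.29, 10.41 and 9.85 in OB, 11.10, 10.36 and 9.48 in non-OB and 8.64, 8.36 and 8.60 in sham, with a log2 change of 1.65 in OB (SE 0.38, adjusted p = 0.0450 from limma) and 1.78 in non-OB (SE 0.38, adjusted p = 0.0544). Kif2c, a kinesin that takes microtubules apart, read 5.58, 6.20 and 5.39 in OB, 6.23, 5.43 and 5.48 in non-OB and 2.01, 3.57 and 3.01 in sham. It was well above background on 0 of the 3 sham arrays. In the scaling of the main fit OB exceeded sham at least 3.19-fold (adjusted p = 0.00978) and non-OB at least 3.17-fold (adjusted p = 0.0170). With normexp and quantile normalization its log2 change was 0.43 in OB and 0.43 in non-OB, and it was called in neither.

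The kinesins Kif11, Kif20a and Kif23, the spindle proteins Tpx2 and Nusap1 and the cytokinesis regulator Racgap1 were also called in OB, with log2 changes between 1.47 and 2.44. Not called were Kif4 (1.69, adjusted p = 0.1500 from limma), Ect2 (1.20, adjusted p = 0.0858), Hmmr (1.16, adjusted p = 0.223) and Anln (0.81, adjusted p = 0.345). The spread between lungs was wide for Kif4, which read 5.69, 6.61 and 7.97 in OB, and for Hmmr, which read 8.39, 9.81 and 9.29. For Hmmr the brightest probe stood apart from a dimmer one, which was called (1.97, adjusted p = 0.0310).

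Of the 28 further probes of the 57 genes, 28 had a positive log2 change in OB against sham and 14 were called higher. In 21 the call was that of the brightest probe. Where it was not, a dimmer probe was called for Hmmr and Mcm6, and a dimmer probe was not called for Foxm1, Kif23, Kif2c, Mybl2 and Ttk. That Ttk probe was called in non-OB (2.26, adjusted p = 0.0188 from limma). Hmmr and Ttk each had another dimmer probe with the call of the brightest. It was not called for Hmmr (2.86, adjusted p = 0.0505 from limma) and called for Ttk (3.25, adjusted p = 0.0224). The dimmer probes of Kif2c and Mybl2, and that of Anln, were well above background on 0 arrays.

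Set side by side, the roles differed in their counts of calls. Of the 15 replication genes (licensing, nucleotide supply and clamp), 3 were called in OB and 2 in non-OB, with median log2 changes of 0.66 and 0.55. Of the 36 genes of mitosis, kinetochore, spindle and chromatin, 30 were called in OB and 28 in non-OB, with medians of 2.24 and 1.99. Averaged on each array, the mitosis genes stood above the replication genes, relative to the sham mean, by 0.98, 1.07 and 1.25 in OB and by 1.14, 1.35 and 0.90 in non-OB. In the sham lungs the same difference was -0.30, 0.01 and 0.30, so that no sham lung reached a graft. No test was made of this difference, since the roles hold chosen genes.

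Among the single grafts, the mean of the 57 genes over the sham mean was 1.70, 1.92 and 1.49 in OB, 2.17, 1.42 and 1.21 in non-OB and -0.06, -0.12 and 0.18 in sham. The OB grafts lay inside the range of the non-OB grafts, whose SD was 0.50 against 0.21 in OB and 0.16 in sham. Non-OB 1 was the brightest of the 6 grafts for 44 of the 57 genes and the dimmest for 0, and non-OB 3 was the dimmest for 39. OB 2 was the brightest for 8 genes. The range over the 6 grafts had a median of 1.14 on the log2 scale and went from 0.49 for Rrm1 to 2.28 for Kif4. Non-OB 1 stayed highest and non-OB 3 lowest in each of the 5 scalings and gene selections run, while the order of the others changed.

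**Figure D3:**
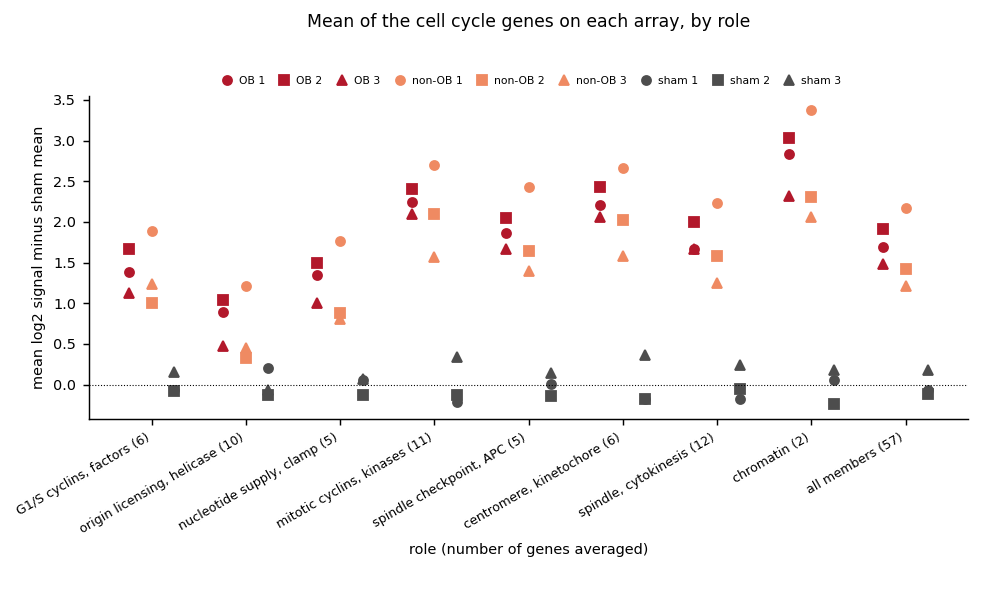
Mean over the genes of each role (horizontal axis, with the number of genes) of the log2 signal minus the mean of the 3 sham arrays, 1 symbol for each array. In each role non-OB 1 (orange circle) is the highest array, and the replication roles lie nearer to the sham arrays than the mitotic roles.

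Some lists of cell type markers also differed between grafts and sham lungs, higher for some cell types and lower for others. Of 15 T cell markers, all well above background on all 9 arrays, 13 were called higher in OB and 9 in non-OB than in sham, and their summed scaled signal was 76251 to 89115 in OB, 46858 to 71750 in non-OB and 22641 to 32583 in sham. Non-OB 1, the highest in cell cycle genes, had a T cell sum of 68510, and non-OB 3, the lowest, had 71750. For 8 fibroblast markers, all well above background on all 9 arrays, the sum was 189397, 341991 and 125068 in OB 1, 2 and 3. It was 228858, 174549 and 121588 in non-OB 1, 2 and 3, against 98999 to 161209 in sham. OB 3 and non-OB 3 thus lay inside the sham range. Of the 8 fibroblast markers, 0 were called higher, 1 was called lower in OB and 0 in non-OB. Of 9 plasma cell markers 3 were called higher in each comparison, with sums of 47240 to 77891 in OB, 55447 to 61883 in non-OB and 33232 to 42855 in sham. Of 10 B cell markers 0 were called, and of 7 germinal centre B cell markers 1 was called in OB, while Rgs13 was at background on all 9 arrays. Of 12 macrophage and monocyte markers 3 were called higher in OB and 2 in non-OB, with sums of 195127 to 223229 in OB, 189589 to 209456 in non-OB and 136862 to 164578 in sham. Of 8 endothelial markers 6 were called lower in OB and 3 in non-OB, with sums of 48229 to 50510, 61623 to 80637 and 132517 to 165502. Of 6 cardiac muscle markers 5 were called lower in OB and 6 in non-OB, of 7 erythroid markers 2 and 1, and of 8 NK cell markers 1 and 1. Of the 10 lung epithelium markers 1 was called lower in each comparison. The part of these cells in the change of the cell cycle genes was not tested.

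The test did not tell OB from non-OB grafts by these genes. In OB against non-OB 0 of the 57 were called in limma, as were 0% of all named genes, and 0 had an unadjusted p under 0.05, which 2.25% of all named genes had. The methods' t-test also gave 0 of the 57 at that threshold. The smallest adjusted p over all probes was 0.893. The median log2 difference was 0.12, with 49 values above 0 and 8 below. For 0 genes did all 3 OB arrays lie above or below all 3 non-OB arrays, against 1.43% above and 3.59% below of all named genes. Among 57 genes such shares amount to few genes, so the 0 is close to them. These counts are for the brightest probe of each gene. On a dimmer probe of Ttk all 3 OB arrays lay below all 3 non-OB arrays (-1.02, unadjusted p = 0.0196 from limma). That probe was well above background on 1 non-OB array and on no other. The lack of calls does not show that the grafts were alike. The 95% interval of the difference held 0 for all 57 genes, reached 0.78 to each side of the estimate in the median gene, and lay within 2-fold either way for 37 of them.

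The 3 genes with the lowest p-values were Ccne2, Mcm6 and Cenpa. The log2 difference was 0.28 for Mcm6 (95% interval -0.24 to 0.80, adjusted p = 1 from limma) and 0.27 for Cenpa (95% interval -0.23 to 0.77). Ccne2 gave no measured difference, with none of its signals well above background. Pairs of grafts on the same slide pointed in different directions: OB 1 was dimmer than non-OB 1 on slide 1 for all 57 genes, with a median of -0.48, OB 2 was brighter than non-OB 3 for 55 genes, with a median of 0.73, and OB 3 and non-OB 2 differed by a median of 0.06. The direction of the median rested on single grafts. Without non-OB 1 it was 0.38, with 8 genes brighter and 1 dimmer in OB by limma's unadjusted p. Over all named genes that fit gave 206 brighter and 913 dimmer. The lowest of the 57 values there, -1.11, was that of Ccne2, which gave no measured difference. Without OB 3 the median was 0.22. Without OB 1 it was 0.10, without OB 2 it was 0.03 with 31 values above 0, and without non-OB 2 it was 0.02 with 34. Without non-OB 3 it turned to -0.08, with 17 values above 0. In each of these cases 0 genes were called.

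**Figure D4:**
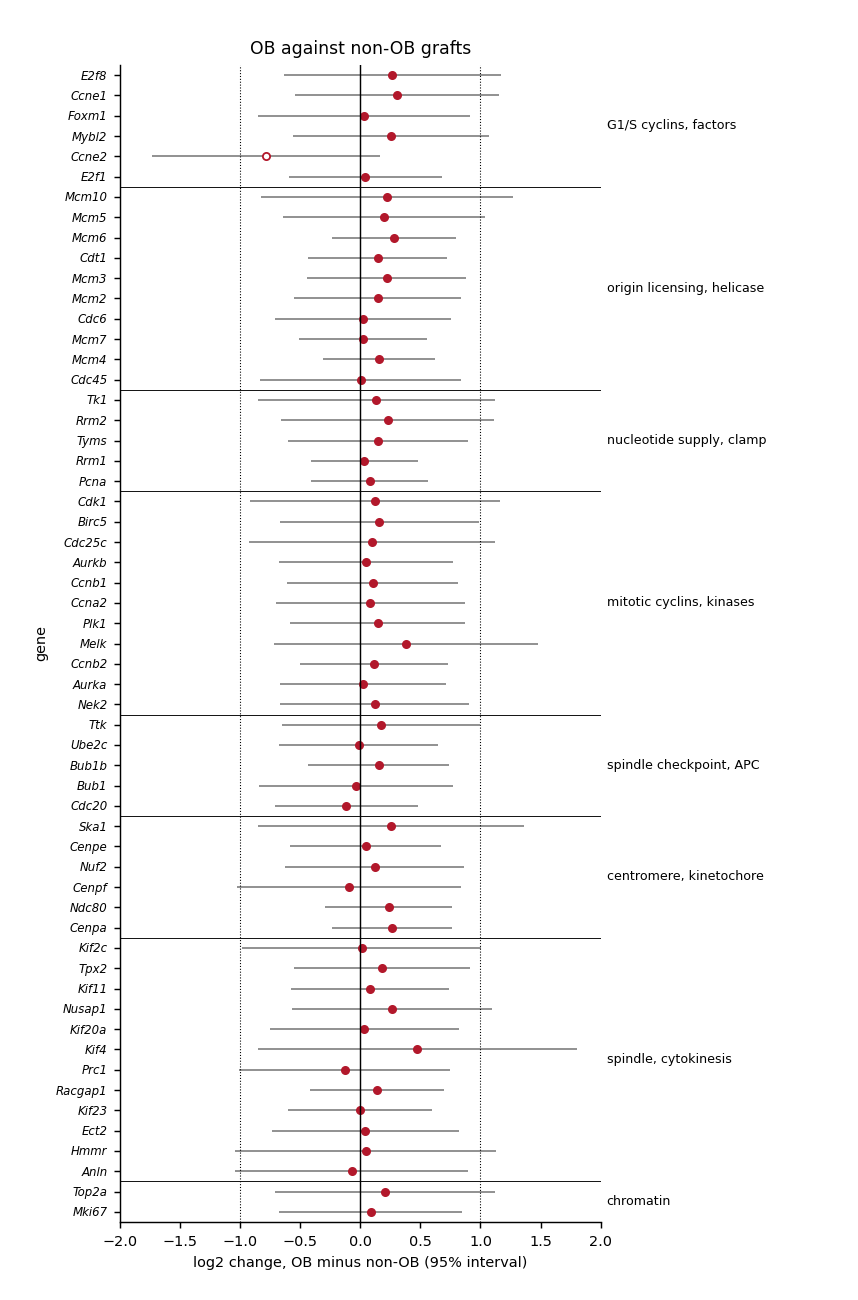
Log2 change of each of the 57 genes between the OB and the non-OB group (points) with its 95% interval from limma (lines), grouped by role. Dotted lines mark a 2-fold change either way. All 57 intervals cross 0. The open point, Ccne2, was at background on all 9 arrays and gives no measured change, and the other points lie between -0.13 and 0.47.

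Other genes of the cell cycle, 103 in 13 lists chosen by function with earlier results of these data known, were set beside the 57. In OB against sham 10 of the 103 were called higher and 1 lower, with a median log2 change of 0.05, and in non-OB 7 were called higher and 0 lower. Of the 10, 8 stood in the lists of cohesin and condensin, kinetochore and passenger genes, and separase and shugoshin. They included the condensin subunits Ncapg (3.15, adjusted p = 0.00307 from limma) and Ncapd2 (1.32, adjusted p = 0.0287), the passenger protein Cdca8 (2.48, adjusted p = 0.00550), the kinetochore protein Spc24 (1.98, adjusted p = 0.00823), the cohesin protector Sgo1 (2.39, adjusted p = 0.00716) and separase, Espl1 (1.90, adjusted p = 0.00872). In the replication machinery Dbf4, the activator of the Cdc7 kinase, and Gins1, of the helicase, were called in OB by 1.20 and 1.26. The gene called lower was Btg2, an antiproliferative factor, at -1.17 (adjusted p = 0.0244).

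Regulators of G1 were not called. The D-type cyclins Ccnd1, Ccnd2 and Ccnd3 had log2 changes of -0.69, -0.28 and -0.62 in OB (adjusted p = 0.105, 0.380 and 0.215 from limma), and Cdk4 and Cdk6 of 0.00 and -0.10. Among the CDK inhibitors Cdkn2a, which encodes p16 and p19Arf, had the largest value in OB, at 1.72 (adjusted p = 0.0715), and Cdkn2b and Cdkn1c had -0.92 and -0.89. Cdkn1a, which encodes p21, had 0.11 in OB and 0.95 in non-OB (adjusted p = 0.878 and 0.252), and Cdkn1b, Cdkn2c and Cdkn2d lay between -0.21 and -0.07 in OB. Of 12 core subunits of the anaphase promoting complex 0 were called, with a median of -0.21, although its activator Cdc20 and its enzyme Ube2c were. The plot of all lists shows the changes beside each other.

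**Figure D5:**
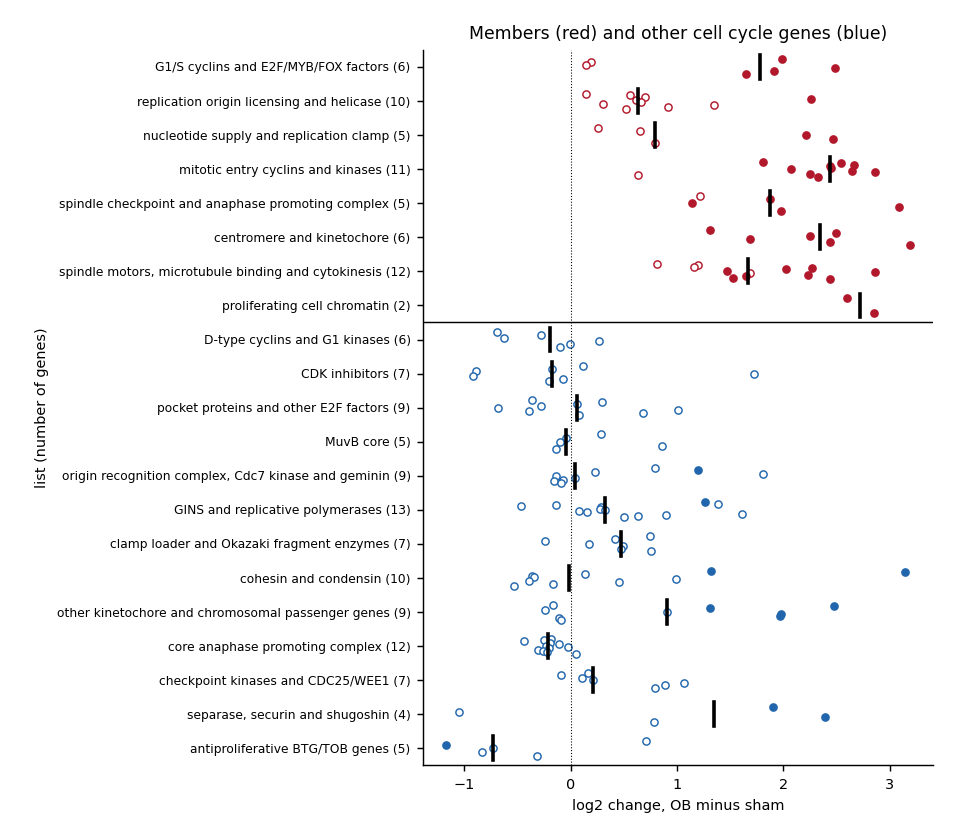
Log2 change in OB against sham (horizontal axis) of the 57 genes in 8 roles (red) and of 103 other cell cycle genes in 13 lists (blue). Filled points were called, open points were not, and vertical lines are medians. The medians of the mitotic, kinetochore and chromatin roles lie between 1.67 and 2.73, and that of the 103 other genes is 0.05.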

How the data were processed

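RNA of 9 left lungs (OB, non-OB and sham, 3 each) was hybridised to Agilent 1-colour arrays, 1 for each lung. The authors extracted the scans with Agilent Feature Extraction 12.0.3.1 (per the labels) and deposited the background-subtracted intensity of each spot. Each array was then scaled here so that the mean over its spots, trimmed by 2% at each end, was 2500, as the authors did, and log2 was taken. Control spots and outlier spots were left out, and 56601 probes were tested.

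Accessions were matched to RefSeq's table for GRCm38.p6 (32991 probes, 22909 genes). Limma 3.58.1 in R 4.3.3 was fitted with 1 mean for each group on all 9 arrays, with Benjamini-Hochberg adjustment over all probes. A call needed an adjusted p under 0.05 and 2-fold, with no fold for OB against non-OB. Python 3.11.15 and statmod 1.5.0 were also used, and the code was tested on simulated data.

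The members and lists were chosen with earlier results of these data known. Named with values on every array are the brightest gene and the largest change of each role, with Mki67, Top2a, Cdk1, Ccne1 and Pcna. Every uncalled member, the lowest 3 p-values in OB against non-OB, CDK inhibitors and D-type cyclins are also named, with up to 2 called genes of each other list. Alternatives were other scalings, filters, spread models, blocks and sham strains, the methods' t-test, and fits without single arrays. Normexp used the median spot signal and an offset of 50, which makes the log2 changes of dim probes smaller. Precision is limited by 3 arrays in a group. Array annotation names another build, so only promoters carry coordinates.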

Additional observations from a re-analysis of the deposited data

How the results depend on the processing

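In OB against sham the number of the 57 genes called higher, 37, lay within 1.5 times of it under most alternatives. It was 24 with normexp and quantile normalization, 21 with the C57BL/6 sham lungs only, 0 with the C57BL/10 sham lung only (40 by unadjusted p in limma), where the lone sham lung is assumed to vary like the grafts, and 0 with the slide as a fixed block, which leaves few degrees of freedom. When each array was left out in turn it lay between 18 and 40. With the C57BL/6 sham lungs only, which is the same fit as that without sham 1, the number of all named genes called higher fell too. It went from 875 to 527 in OB and from 578 to 251 in non-OB. For non-OB against sham the number, 32, was 19 with quantile normalization, 15 with normexp and quantile normalization, 0 with the slide as a fixed block, 8 with the C57BL/6 sham lungs only, 0 with the C57BL/10 sham lung only, 15 with only the 2 groups compared, 0 with the methods' t-test after Benjamini-Hochberg (39 before it) and 3 to 28 with an array left out. With the replicate number as a block (replicate block) 32 genes were called in OB and 15 in non-OB against sham. The deviations of same-numbered arrays from their group means had correlations from -0.40 to 0.28 across probes. These cannot settle whether the numbers pair the lungs, since slides enter them too: OB 2 and non-OB 3, on the same slide, had 0.45. The replicate block also takes degrees of freedom.

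The number of other cell cycle genes called higher in OB, 10, was 0 with the fixed slide block, 17 with the slide as a random block, 0 with the C57BL/10 sham lung only and 5 to 13 with an array left out. The median log2 change of the 57 genes was 1.06 with normexp and 2.30 with the fixed slide block in OB, and 0.90 and 2.26 in non-OB, where it lay between 1.39 and 2.06 with an array left out. In OB it lay between 1.76 and 1.94 with an array left out. OB against non-OB gave 0 calls under all alternatives run, and its median, 0.12, lay between -0.08 and 0.38 with an array left out.

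With normexp and quantile normalization the mean of the 57 genes over the sham mean was 1.25, 1.16 and 0.93 in OB and 1.54, 0.92 and 0.50 in non-OB, and on non-OB 3 it was 0.83 with quantile normalization alone. Genes no longer called in OB with normexp were Bub1b, Cdc25c, Cdk1, Cenpf, Foxm1, Kif11, Kif20a, Kif23, Kif2c, Melk, Ndc80, Prc1, Ska1 and Ttk. Mcm6 was newly called. The log2 changes of Kif11, Kif23 and Bub1b in OB were then 0.64, 0.74 and 0.83, short of 2-fold. Of the 57 genes, 54 had a positive change in OB against sham under all alternatives, and Ccne2, E2f1 and Cdc45 did not. In non-OB it was 53, with Mcm4 as the further exception. Of the 57 genes, 7 were not well above background on all arrays, which limits their folds.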
